A study of Mus musculus with 6 samples.

Results

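The immediate early genes described here are 10 genes (Fos, Fosb, Jun, Junb, Egr1, Egr2, Atf3, Ier2, Ier3 and Nr4a1), chosen by name among the gene probes of the array, and 1 probe carried each name. All 10 were well above background on all 6 arrays, so all 10 were among the 22991 genes tested. They were measured in hearts of male C57BL/6 mice, 8 weeks old, 21 days after a myocardial infarction caused by tying off the left anterior descending artery of the heart. The antagomir group (3 arrays) had received 80 mg/kg of an oligonucleotide that blocks miR-433 through the tail vein on 3 consecutive days, and the control group (3 arrays) a scrambled oligonucleotide by the same schedule. Both groups carried the infarct, and no uninjured heart was analysed here. Neither the region of the heart sampled nor separate animals behind the arrays are stated in the labels, so p-values measure only the spread between these arrays, which may be technical.

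Immediate early genes are switched on within minutes of a stimulus, without new protein synthesis, by factors already present in the cell such as SRF with its ELK and MRTF partners and CREB. Most encode transcription factors: FOS, FOSB, JUN and JUNB pair into AP-1, ATF3 is a related stress factor, EGR1 and EGR2 are zinc finger proteins and NR4A1 is an orphan nuclear receptor. In the heart they respond to stretch, adrenergic drive and ischaemia, and in any tissue also to excision and delay before freezing, and their RNAs are short-lived.

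The arrays were 1-colour Cy3 arrays on 1 slide read in 1 scan, with between 55.2% and 58.5% of gene spots well above background on 5 of them and 73.6% on antagomir array 3. Control arrays 1 and 2 lay in row 1 of the slide and the other arrays in row 2. Levels are log2 signals minus the 75th percentile of the array, fold changes are antagomir minus control on that scale, and n = 3 per group. Of all genes tested, 14401 (62.6%) had a positive fold change, with a median of 0.09. The cardiomyocyte markers (8 of 8 tested, among them Myh6, Tnnt2 and Actc1) had mean levels between 8.08 and 8.63 on the 6 arrays, so heart muscle RNA was abundant on every array. The number of arrays limits the precision.

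The promoters of Fos, Fosb and Nr4a1 are shown because these genes varied together from array to array. Each sequence runs 5′ to 3′ and ends at the base before the RefSeq start site (GRCm38.p6). Capitals mark the core of the cAMP response element (TGACG, or CGTCA on the other strand), bound by CREB and ATF factors, and the 9-base EGR site (GCGGGGGCG or GCGTGGGCG, either strand).

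Fos, chr12:85473740-85473889, plus strand: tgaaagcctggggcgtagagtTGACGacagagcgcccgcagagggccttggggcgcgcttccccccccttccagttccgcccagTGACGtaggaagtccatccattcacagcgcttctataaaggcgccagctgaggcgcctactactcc

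Fosb, chr7:19310046-19310195, minus strand: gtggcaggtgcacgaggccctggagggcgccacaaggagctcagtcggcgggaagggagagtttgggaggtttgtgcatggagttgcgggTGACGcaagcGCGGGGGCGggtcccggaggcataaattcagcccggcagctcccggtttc

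Nr4a1, chr15:101266596-101266845, plus strand: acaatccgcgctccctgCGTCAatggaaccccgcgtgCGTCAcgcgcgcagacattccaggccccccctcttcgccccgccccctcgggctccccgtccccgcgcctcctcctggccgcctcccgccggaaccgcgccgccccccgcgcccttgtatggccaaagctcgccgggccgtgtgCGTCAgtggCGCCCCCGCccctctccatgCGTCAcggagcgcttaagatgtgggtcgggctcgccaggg

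RefSeq windows of 300 bases (250 before to 50 after a start) were at hand for 8 of the 10 genes, all but Egr1 and Ier2. A gene was counted if any of its windows held the letters, and Egr2 had 5 windows. The CRE core stood in 6 of the 8 (Fos, Fosb, Junb, Egr2, Atf3 and Nr4a1), on either strand, against 23.0% of 27025 genes counted the same way (20.8% of 32851 windows). Nr4a1 held 4 copies, Fos 2, and Egr2, which did not vary with Fos (Pearson r −0.07 over the 6 arrays), also 2 in each window that held any. The EGR site stood in Fosb and Nr4a1, against 3.93% of all genes. The complete element TGACGTCA, which contains the core, stood in 0 of the 8 (2.03% of all genes), and the AP-1 site TGACTCA in 0 (5.95%). The CArG box, the element of SRF, stood in the windows of Egr2 (1.81% of all genes), read as CCATATATGG starting 72 bases before one of its start sites. These are matches of letters in a short window, not measured sites.

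No difference between the groups beyond the spread of the arrays was detected in the 10 genes. A positive fold change was seen in 4 and a negative one in 6, with a median of −0.04, beside 62.6% positive and 37.4% negative over all genes. The split depends on the scaling: with quantile scaling 3 of the 10 (without Atf3) and 45.8% of all genes were positive, and with median scaling 1 of the 10 (Junb) and 13%. By limma 0 of the 10 passed an adjusted p of 0.05, against 0.013% of all genes (3 of 22991). Each of those 3 was well above background on 0 control and 3 antagomir arrays, so it passed the filter only through the antagomir group. An unadjusted p under 0.05 was found in 0 of the 10, against 7.21% of all genes (3.05% higher with the antagomir and 4.16% lower). In all 10 the values of the groups overlapped, whereas 15.7% of all genes had groups without overlap (8.78% higher and 6.93% lower). In 8 of the 10 the fold change was smaller than the SD between arrays of a group. Arrays of 1 group differed more than for most genes: the pooled SD had a median of 0.80 over the 10 genes and 0.27 over all genes tested, and 9 of the 10 lay above the latter.

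**Figure D1:**
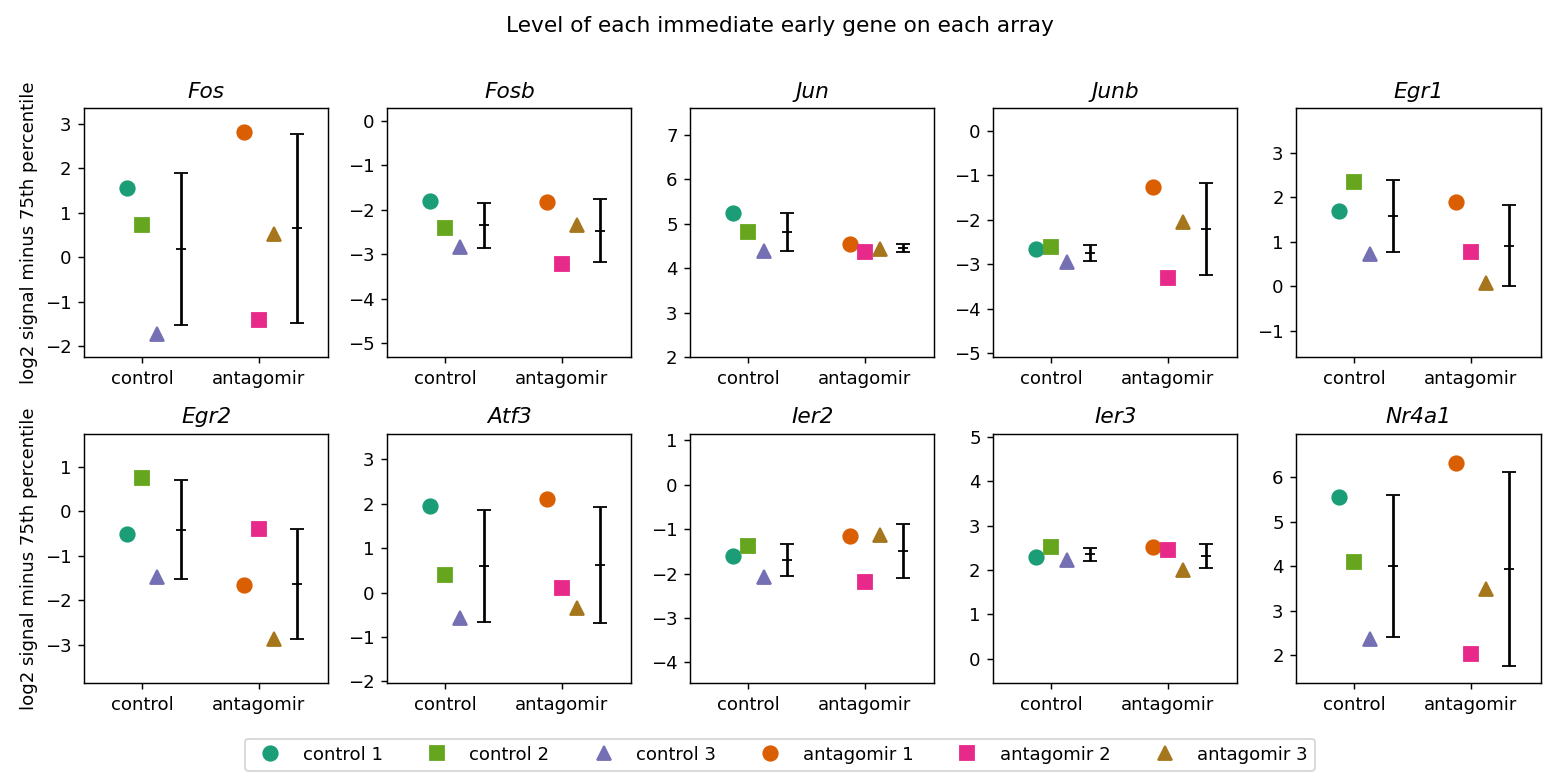
Log2 level (signal minus the array's 75th percentile) of each of the 10 genes on the 3 control and 3 antagomir arrays, 1 point per array, with the group mean and SD as black bars, on y axes of equal length. The groups overlap in every panel, and Fos and Nr4a1 run over more than 4 log2 units while Ier3 stays within 0.53.

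Fos, the partner that gives AP-1 its rapid response, varied most. Its probe (mm9 chromosome 12 from 86817900 to 86817959) was printed on 10 spots of each array. The processed signal, averaged over those spots, was 1293, 756 and 127 in the control group, arrays 1, 2 and 3 in that order. The antagomir group gave 2548, 137 and 569.6. One array of each group was therefore low, control array 3 and antagomir array 2, and the highest and lowest arrays differed 23.5-fold after scaling. The 10 spots agreed closely within an array, with an SD between 0.053 and 0.095 log2 units, against an SD between arrays of 1.71 in controls and 2.12 with the antagomir. Mean levels of 0.18 (control) and 0.65 (antagomir) differed by 0.46 log2 units (SE 1.29; adjusted p = 0.902 by limma). The 95% interval of the antagomir to control ratio ran from 0.156 to 12.2, so changes of several-fold either way are inside it. Without antagomir array 1 the fold change was −0.63, and without control array 3 it was −0.49.

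Fosb, which encodes a close relative of FOS, was read by a dim probe (chromosome 7 from 19888168 to 19888227). In the same order of arrays its signals were 126, 85.6 and 58.9 in controls and 101, 38.8 and 77.6 with the antagomir. Control array 1 and antagomir array 1 were the highest and antagomir array 2 the lowest. The antagomir minus control difference was −0.12 log2 units (SE 0.43; adjusted p = 0.925 by limma), with an interval of the ratio from 0.447 to 1.90. It turned to 0.15 without control array 1 and to 0.26 without antagomir array 2.

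Jun, the AP-1 subunit that can also pair with itself, varied less. Its signals (probe on chromosome 4 from 94716928 to 94716987) were 16535, 12837 and 8749.9 in controls and 8366, 7453 and 8572 with the antagomir. The antagomir arrays lay close together (SD 0.09) and the controls further apart (SD 0.43), and after scaling antagomir arrays 1 and 3 lay above control array 3. The antagomir minus control difference was −0.36 log2 units (SE 0.24; adjusted p = 0.691 by limma), with a ratio interval from 0.521 to 1.16. It was −0.15 without control array 1 and −0.58 without control array 3.

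Junb, whose product is a weaker activator than JUN, was dim on every array (chromosome 8 from 87501881 to 87501940). Signals were 70.0, 74.3 and 54.3 in controls and 149, 36.5 and 96.3 with the antagomir. The controls lay within 1.26-fold of each other, and the antagomir arrays spread 4.13-fold around them, with both the highest and the lowest value of the series. The antagomir minus control difference was 0.53 log2 units (SE 0.51; adjusted p = 0.726 by limma, ratio interval 0.613 to 3.43), 0.06 without antagomir array 1 and 1.09 without antagomir array 2.

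Atf3, a stress-induced factor that is usually a repressor as a homodimer, gave almost equal group means. Its signals (chromosome 1 from 192994547 to 192994606) were 1699, 604 and 285 in controls and 1544, 387 and 312 with the antagomir. The first array of each group stood high and the remaining 4 lay between 285 and 604, so its 6.35-fold range ran inside both groups. The antagomir minus control difference was 0.02 log2 units (SE 0.86; adjusted p = 0.993 by limma). The ratio interval ran from 0.235 to 4.39, and leaving out array 1 of the controls gave 0.70, of the antagomir group −0.72.

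The EGR genes had another order of arrays. Egr1, which encodes the zinc finger factor induced by growth factors and stretch, had signals of 1412, 2296 and 694 in controls and 1327, 618 and 416 with the antagomir. Egr2, its relative (chromosome 10 from 67004798 to 67004857), had signals of 311, 769 and 152 in controls and 114, 277 and 54.4 with the antagomir. Control array 2 was the highest and antagomir array 3 the lowest for both, whereas antagomir array 1, where Fos was highest, was below the controls for Egr2. Egr1 differed by −0.67 log2 units between the groups (SE 0.59; adjusted p = 0.713 by limma; ratio interval 0.232 to 1.70). Egr2 differed by −1.23 (SE 0.79; adjusted p = 0.691 by limma). The Egr2 difference, 2.35-fold lower with the antagomir, was the largest of the 10, with a ratio interval from 0.111 to 1.63. Without antagomir array 3 the values were −0.25 for Egr1 and −0.62 for Egr2, and without control array 2 they were −0.29 and −0.65.

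Nr4a1, which encodes a nuclear receptor with no known hormone ligand, was the other gene with a very large spread (chromosome 15 from 101105071 to 101105130). Signals were 20635, 7736 and 2179 in controls and 28759.6, 1481 and 4459 with the antagomir. As for Fos, the first array of each group was high, and control array 3 and antagomir array 2 were low, a 19.6-fold range. The antagomir minus control difference was −0.05 log2 units (SE 1.28; adjusted p = 0.989 by limma), with a ratio interval from 0.111 to 8.37. It was 0.90 without antagomir array 2 and −1.24 without antagomir array 1.

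Ier3 varied least of the 10, and Ier2 less than all but Ier3 and Jun. Ier2, a small nuclear regulator (chromosome 8 from 87186214 to 87186273), had signals of 145, 176 and 99.6 in controls and 162, 79.1 and 182 with the antagomir. Control array 3 and antagomir array 2 were again low, and the antagomir minus control difference was 0.20 log2 units (SE 0.35; adjusted p = 0.846 by limma). The interval of the ratio ran from 0.629 to 2.09, and leaving out control array 3 gave 0.0015 and leaving out antagomir array 2 gave 0.55. Ier3, which is linked to survival signalling (chromosome 17 from 35959528 to 35959587), had signals of 2158, 2625 and 1981 in controls and 2045, 1978 and 1586 with the antagomir. It kept within 1.44-fold over all 6 arrays, and its difference of −0.03 (SE 0.19; adjusted p = 0.957 by limma) had the narrowest ratio interval, from 0.709 to 1.35.

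**Figure D2:**
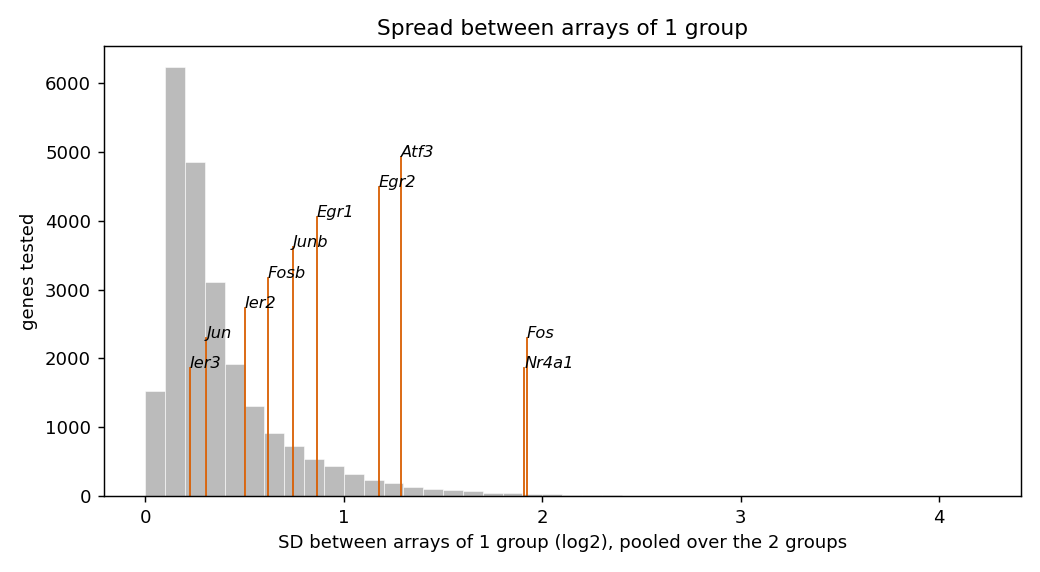
Histogram of the SD between arrays of a group (log2, pooled over both groups) for the 22991 genes tested, with an orange line for each of the 10 genes. Fos (1.92) and Nr4a1 (1.91) lie far to the right of the median of all genes (0.27), and Ier3 (0.22) lies just below it.

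The spread within groups differed among the 10 genes. Fos and Nr4a1 had a pooled SD above that of 99.3% of the genes tested, Atf3 above 97% and Egr2 above 96.1%. Egr1 exceeded 91.3%, Junb 88.0%, Fosb 83.2% and Ier2 76.9%. Jun stood above 56.1% and Ier3 above 39.7%, nearer to the median gene than the others. These values are descriptions with no test, and an SD from 3 arrays is itself imprecise.

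**Figure D3:**
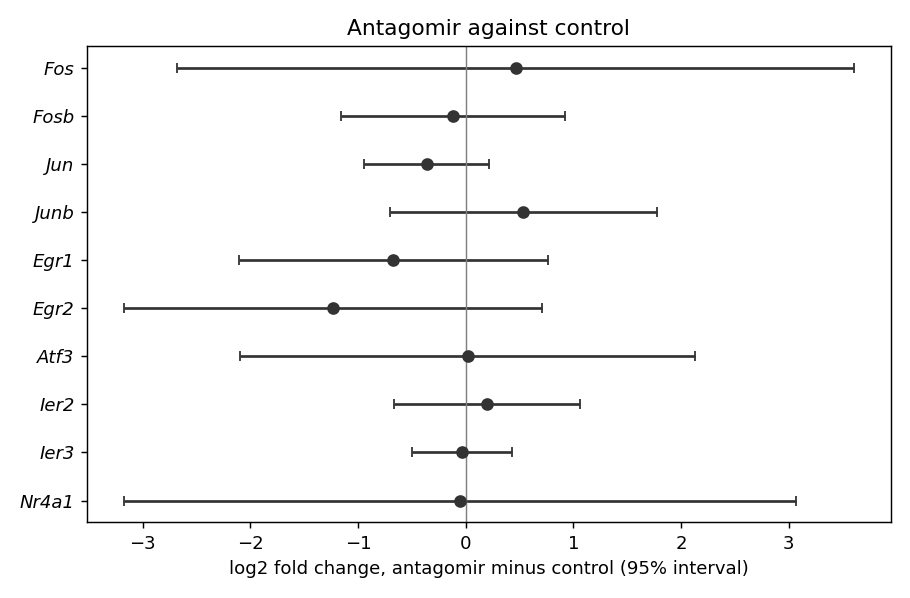
Log2 fold change (antagomir minus control) of each gene, with its 95% interval from limma as a horizontal bar (n = 3 per group). Every interval includes 0, and the intervals of Fos and Nr4a1 are the widest.

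The order of the arrays was shared by some of the 10 genes and not by others. Averaged over the 10, the level relative to each gene's own mean was 0.60, 0.35 and −0.76 in controls and 0.86, −0.65 and −0.39 with the antagomir. On control array 3 all 10 were below their own mean, on antagomir array 2 it was 8, and on antagomir array 1 it was 2 (Jun and Egr2). High and low arrays were thus found in both groups. Over the 6 arrays, which share the slide, the scan and the scaling, Fos had a Pearson r of 0.97 with Nr4a1 (Spearman 0.94), 0.93 with Fosb (0.83), 0.84 with Atf3 (0.94), 0.83 with Junb (0.71) and 0.82 with Ier2 (0.54). It was 0.57 with Egr1 (0.66), 0.52 with Jun (0.77), 0.23 with Ier3 (0.49) and −0.07 with Egr2 (−0.09). Without the arrays farthest from the Fos median, antagomir array 1 and control array 3, 4 arrays were left. Over these, r with Fos was 0.96 for Nr4a1, 0.99 for Fosb, 0.61 for Atf3, 0.65 for Junb and 0.70 for Ier2. For the rest it was 0.82 for Jun, 0.42 for Egr1, −0.02 for Egr2 and −0.27 for Ier3, so the split between the genes is not firm. Of the 45 pairs among the 10 genes, 9 had r above 0.8 and 7 were negative, 5 of the negative ones with Egr2. The same share over pairs of all genes was not worked out, so whether 9 is many is not known. These are descriptions over 6 arrays with no test.

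The slide row moved with these genes, since both arrays of row 1 were above the average of the 6, as was 1 of the 4 in row 2 (antagomir array 1). With the row as a block, which compares control array 3 alone with the antagomir arrays, 9 of the 10 were higher with the antagomir, Fos by 2.37 and Nr4a1 by 1.58, and 0 passed by limma (smallest adjusted p over all genes 0.232, with 307 genes at an unadjusted p under 0.05). Leaving out control array 3 or antagomir array 1 left 2 of 10 higher. The part of the slide row was not tested. Antagomir array 3, which had more spots above background, touches the dim genes: without it the differences were −0.18 for Fosb, 0.45 for Junb and 0.01 for Ier2, each of the same sign as with it.

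Other genes of the immediate early response were taken from fixed lists. Of 19 further transcription factors 15 were tested, and Fosl1, Egr3, Egr4 and Nr4a3 were not well above background on enough arrays. Of these 15, 6 were higher and 9 lower with the antagomir (median −0.12), and 0 passed by limma, with 1 lower at a raw p under 0.05 (4.16% of all genes). The members with the smallest p were Ier5 (−0.53, SE 0.20), which is related to Ier2, the neuronal activity factor Npas4 (−0.93, SE 0.61), the zinc finger factor Klf6 (−0.28, SE 0.19) and Cebpb (0.21, SE 0.18). Leaving out control array 2 took Npas4 to −0.37 and Cebpb to 0.10, and leaving out antagomir array 3 took Klf6 to −0.18. Npas4 was well above background on 3 control arrays and 1 antagomir array, so its dim signal limits that comparison. Ier5 was the 1 member without overlap between the groups (15.7% of all genes). The mean of the list relative to each gene's own mean was 0.20, 0.28 and −0.29 on the control arrays and 0.37, −0.29 and −0.26 on the antagomir arrays, the same high and low arrays as for the 10 genes. Over the 6 arrays 6 of the 15 had r above 0.8 with Fos (Fosl2, Nr4a2, Klf2, Klf4, Csrnp1 and Btg2, named after their values were seen), beside 0.953% of all genes tested.

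Of 28 effector and feedback genes, all tested, 10 were higher and 18 lower (median −0.14). By limma 0 passed, and 3 lower ones and 0 higher ones had a raw p under 0.05 (4.16% and 3.05% of all genes). These were Ccn2 (connective tissue growth factor; −1.37, SE 0.50), Ccn1 (its relative Cyr61; −1.10, SE 0.43) and the kinase gene Plk2 (−0.61, SE 0.24). Ccn2 had levels of 5.79, 7.58 and 5.79 in controls and 5.07, 4.95 and 5.03 with the antagomir, so its groups did not overlap. Of the 28, 3 had groups without overlap (15.7% of all genes): Ccn2 and Plk2, both lower, and Nfkbia, of the inhibitor of NF-kappaB, higher at 0.13 (SE 0.13). Control array 2 carried much of the size of these values: without it Ccn2 was at −0.77 (SE 0.13) and Ccn1 at −0.69 (SE 0.32). The groups of Ccn2 still did not overlap without that array, and 0 genes passed by limma. Blocking on the slide row gave −0.77 for Ccn2 and −0.28 for Ccn1. Of 6 fibroblast markers, Col1a1 (−2.82), Col3a1 (−3.33), Lum (−1.59) and Postn (−3.71) were lower with the antagomir without overlap, while Pdgfra was at −0.35 and Dcn at −0.0016. By limma 0 of the 6 passed (smallest adjusted p 0.497), and 4 had a raw p under 0.05. The list's mean level lay between 5.30 and 5.97 in controls and between 3.19 and 4.26 with the antagomir. All 4 smooth muscle markers were also lower, Tagln (−1.11) and Cnn1 (−1.30) without overlap and at a raw p under 0.05. The 8 cardiomyocyte markers were higher, 4 of them without overlap, but with quantile scaling 4 were higher and with median scaling 0. By limma 0 of the smooth muscle and cardiomyocyte lists passed, with 0 of the latter at a raw p under 0.05. In whole tissue, fewer cells of a type and less RNA per cell cannot be told apart, and the part of these cell types was not tested. Dusp1, the phosphatase that ends MAP kinase signalling, was 1 of 5 members with r above 0.8 with Fos (with Rhob, Errfi1, Apold1 and Cxcl1, named after their values were seen), and its fold change was 0.24 (SE 0.39).

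The kinases and factors upstream varied less from array to array than the 10 genes. Of 21 tested, 11 were higher and 10 lower (median 0.02). Their median pooled SD was 0.21, against 0.80 for the 10 genes and 0.27 over all genes tested, and Rps6ka1 reached 0.60. By limma 0 passed, and Elk3 was the 1 with a raw p under 0.05 (−0.52, SE 0.18), beside 4.16% of all genes lower at that p. It encodes a partner of SRF. Mapk7, the gene of the kinase ERK5 (−0.48, SE 0.20), Mrtfb, an SRF coactivator (−0.27, SE 0.13), and Mef2d (0.37, SE 0.22) followed. The Mrtfb value is that of the brightest of 3 probes, and the mean of the 3 gave −0.011. Without control array 2 Mapk7 was at −0.29 and Mef2d at 0.22. Of the 21, 2 higher and 3 lower genes had groups without overlap (8.78% and 6.93% of all genes), and 0 had r above 0.8 with Fos. RNA levels do not measure the phosphorylation through which these proteins act.

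Heat-inducible chaperones and genes of ATF4 and the unfolded protein response were also fixed as stress lists. Of 9 chaperones tested 7 were higher and 2 lower (median 0.14), beside 62.6% higher over all genes. Among them were the mitochondrial Hspe1 (0.38, SE 0.19), Hsph1 (0.30, SE 0.19), Hspd1 (0.31, SE 0.20) and Bag3 (0.21, SE 0.15). With median scaling of the arrays 0 were higher. Without control array 2 Hspe1 was at 0.22, Hspd1 at 0.12 and Bag3 at 0.10, and without antagomir array 1 Hsph1 was at 0.19. Hspa1a, the inducible HSP70 gene, had levels of −0.46, −0.98 and −1.80 in controls and −0.64, −1.96 and −1.31 with the antagomir. Control array 3 and antagomir array 2 were its lowest arrays, as for Fos, and it had r above 0.8 with Fos, as did Dnajb1, its co-chaperone. Hspa1b had no probe under that name. Of 10 genes of the ATF4 list 4 were higher and 6 lower (median −0.05), with Asns at −0.91 (SE 0.42), Hspa5 at 0.29 (SE 0.18), Herpud1 at 0.43 (SE 0.29) and Atf4, of the factor itself, at −0.17 (SE 0.13). Without control array 2 Asns was at −0.47, Herpud1 at 0.11 and Hspa5 at 0.20. By limma 0 of either list passed, and 0 had an unadjusted p under 0.05. Groups without overlap were found in 2 chaperones, Hspe1 and Bag3, both higher (8.78% of all genes). In the ATF4 list 1 gene, Atf4, was lower without overlap (6.93%).

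**Figure D4:**
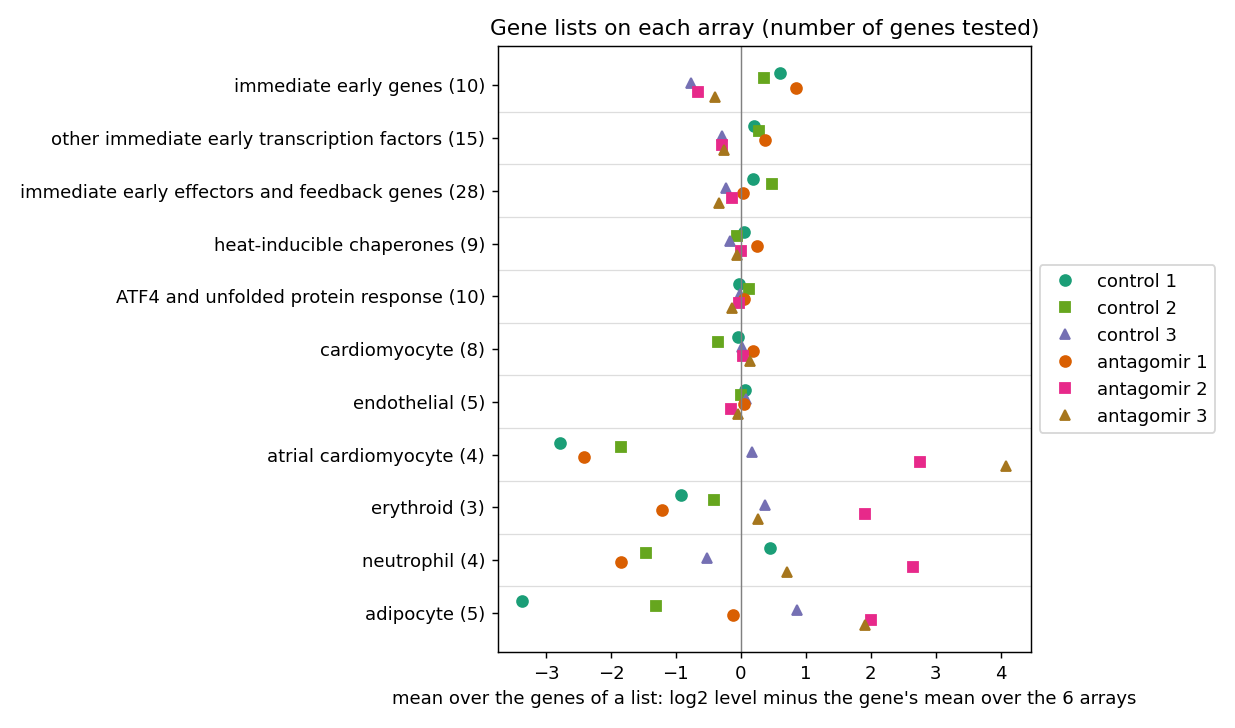
Mean over the genes of each list of the log2 level minus the gene's own mean over the 6 arrays, 1 point per array. The immediate early genes are high on control arrays 1 and 2 and antagomir array 1 (0.35 to 0.86) and low on the other arrays, where the atrial, erythroid and adipocyte markers are above 0.

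Markers of other cell types also differed between arrays. As means over their genes, the atrial, erythroid and adipocyte lists were low on the arrays where the immediate early genes were high. On the other arrays these means were high. Single members could differ. The atrial Nppa had levels of 8.61, 9.29 and 8.56 in controls and 4.80, 7.88 and 8.66 with the antagomir. The adipocyte Fabp4 had 7.58, 7.17 and 7.59, and 7.70, 7.82 and 7.54. Of the 5 adipocyte markers 2 were well above background on all 6 arrays. The atrial cardiomyocyte markers (4 of 5 tested, all but Bmp10) had mean levels of 0.28, 1.23 and 3.24 in controls and 0.65, 5.82 and 7.15 with the antagomir. Erythroid markers (3 of 4) ran from 0.91 to 2.21 in controls and from 0.61 to 3.74 with the antagomir, lowest on antagomir array 1 and highest on antagomir array 2. Adipocyte markers (5 of 5) ran from −3.16 to 1.07 in controls and from 0.08 to 2.21 with the antagomir. Neutrophil markers (4 of 4) ran from −1.07 to 0.84 and from −1.47 to 3.03, and among controls array 1, not array 3, was the highest. Csf3r of that list did not follow its mean and stayed between 6.79 and 7.12 on all 6 arrays. The endothelial markers (5 of 5) stayed between 3.33 and 3.56 on all arrays. Macrophage markers (5 of 5) ran from 0.78 to 1.72, smooth muscle markers (4 of 4) from 2.47 to 4.05, and skeletal muscle markers (2 of 5, without Actn3, Mylpf and Myh4) from −2.36 to −0.43. The part of these cell types in the immediate early values was not tested.

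The genes whose levels were most like Fos over the 6 arrays, other than the 10, were Nars2 (Pearson r 0.99), which encodes a mitochondrial asparaginyl-tRNA synthetase, the transcript A730082K24Rik (0.99), the metalloproteinase gene Mmp27 (0.99), Slc25a25 (0.98), which encodes a mitochondrial carrier, and a pair of intergenic non-coding probes (0.98 and 0.97). In all, 52 of the genes tested had r above 0.9. Nars2 and A730082K24Rik were each above background on 2 control arrays and 1 antagomir array, so their dim signal limits that comparison. Slc25a25 had levels of 1.42, 1.02 and 0.57 in controls and 1.58, 0.69 and 1.11 with the antagomir, the order of arrays of Fos except that control array 2 and antagomir array 3 changed places.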

How the data were processed

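RNA of 6 heart samples, 3 per group, was measured on 1-colour Agilent arrays. Per the file headers and the submitters' processing notes, Agilent Feature Extraction 10.7.1.1 made the scanner files, whose processed signal is an intensity after spatial and multiplicative detrending within the array. The flags used are other values in the deposited files, 0 or 1 per spot. In the authors' deposited table the raw columns are intensities equal to the processed signal (within 1%), and the normalised columns are log2 values with the same sorted values in every column (within 0.00143). Its method is not given in the sources used here.

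Control spots were dropped, as were 154 to 233 outlier spots an array, and repeated spots were averaged as log2. Each array was scaled to its own 75th percentile. A probe had to be well above background on 3 or more of the 6 arrays to be tested, and a gene was read from its brightest tested probe. Names were updated with a RefSeq table (GRCm38.p6). The group difference was fitted in R 4.3.3 by limma 3.58.1 (two-sided, Benjamini-Hochberg adjusted p under 0.05, intervals of 95%). A permutation test of 3 against 3 cannot go below p = 0.1. The script was tested on simulated data. Figures used Python 3.11.15 and matplotlib 3.10.9.

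The members and gene lists were chosen with earlier results of these data known. Named genes are the 10 members, up to 4 of each pathway list with the smallest p, Hspa1a, and the 6 genes most like Fos; 1 gene that the rule names is not reported here. Alternatives were normexp (offset 50) with quantile scaling, quantile scaling, median scaling, the authors' table, 2 other filters, other uses of a gene's probes, array weights, a variance trend, replicate number and slide row as blocks, and each array left out. The labels do not say whether equal numbers pair the samples. Same-numbered arrays had correlations of deviations of 0.22, 0.14 and −0.05, and other pairs between −0.28 and 0.17. Such values can neither show nor exclude a pairing.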

Additional observations from a re-analysis of the deposited data

How the results depend on the processing

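None of the 10 genes passed the adjusted threshold in any of 18 other settings. The count of genes called over the whole table, 3 (Defa-ps1, Gngt1 and an intergenic probe, named after their values were seen), was 1 with quantile scaling, the authors' table or no filter, and 0 with normexp, with probes above background on all 6 arrays, under a slide row block or under the replicate block. Those 3 genes passed the filter only through the antagomir arrays. The count was 199 with median scaling, where the SE was 0.60 for all 10 genes, whatever their own spread. It was 6 for single probes, 8 with array weights, whose fit did not reach its tolerance, and 0 to 3 with an array left out. At 0, between 307 and 2272 genes had an unadjusted p under 0.05. Whether the numbers pair the samples is not stated in the labels. In this balanced design the replicate block cannot move a fold change. It changed the errors: the SE of Egr2 went from 0.79 to 0.15 (adjusted p = 0.242 by limma) and that of Atf3 from 0.86 to 0.18.

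Of the 10 genes, 1 was higher with median scaling, 9 under a slide row block, and 2 to 6 with an array left out, where the median ran from −0.53 to 0.27. Over all genes the median, 0.09, became −0.38 with median scaling and −0.03 with quantile scaling, and the share higher, 62.6%, became 13% and 45.8%. Signs turned, 26 times in 180 values. With median scaling Fos was at −0.0084, Atf3 at −0.45 and Ier2 at −0.27, and of other named genes Bag3 at −0.26, Cebpb at −0.26, Herpud1 at −0.040, Hspa5 at −0.18, Hspd1 at −0.16, Hspe1 at −0.092, Hsph1 at −0.17 and Mef2d at −0.099. Atf3 was at −0.011 with quantile scaling, −0.030 with normexp, −0.012 in the authors' table and −0.024 with array weights, which put Ier3 at 0.12 and Nr4a1 at 0.27. The slide row as a block put Fosb at 0.37, Jun at 0.067, Egr1 at 0.19, Ier3 at 0.083 and Nr4a1 at 1.58. With an array left out, Fos ran from −0.63 to 1.49, Fosb from −0.44 to 0.26, Atf3 from −0.72 to 0.70, Ier3 from −0.13 to 0.13 and Nr4a1 from −1.24 to 0.90. Median scaling moves the fold change of every gene down by the same amount, since it changes only the scale of each array. The slide row block compares control array 3 alone with the antagomir arrays. The cause of the other turns was not tested, beyond the smaller number of arrays where 1 was left out.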
